A study of Caenorhabditis elegans with 36 samples.

Results

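The *pals* genes of *C. elegans* are the genes whose Ensembl symbol is *pals-* followed by a number. The count table held 38 protein-coding genes with such a symbol among 46093 genes, and 27 of them reached 10 counts in 6 or more of the 36 libraries and were tested, as were 17457 genes in all. The remaining 11 (*pals-2*, *pals-5*, *pals-7*, *pals-9*, *pals-10*, *pals-11*, *pals-12*, *pals-21*, *pals-28*, *pals-29* and *pals-40*) are described by their counts only.

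The family is named after a protein signature shared with the human gene ALS2CR12, and it is greatly expanded in *C. elegans*. Many of its members are transcribed when the intestine is infected by microsporidia or the Orsay virus, in a programme called the intracellular pathogen response. A few members control the programme and are not induced by it. *pals-22* represses it and its neighbour *pals-25* acts against *pals-22*, while *pals-17* represses it and *pals-20* and *pals-16* act against *pals-17*.

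Polyadenylated RNA was sequenced from whole worms described both as young adults not yet fertile and as adults on day 1, with 6 libraries in each of 6 groups. The groups were wild type (N2) labelled 20 °C, hereafter WT20, the mutants *osm-5*, *ife-2* and *eat-2* labelled 20 °C, wild type labelled 25 °C, hereafter WT25, and the mutant labelled *glp-1* at 25 °C. The alleles in the study's strain list are *eat-2(ad1116)*, *ife-2(ok306)*, *osm-5(p813)* and *glp-1(e2141)*. All groups were grown on NGM plates with *E. coli* OP50, and no source states an infection. The growth field of the labels gives 20 °C for every library, so the temperature of WT25 and *glp-1* rests on another field of the same labels. Each mutant is 1 strain, so a mutation cannot be told apart from the rest of that strain's background.

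The libraries held between 35524715 and 55878280 counts each. Some transcripts did not match the labels. The *ife-2* transcript was at 60.7 to 77.6 CPM (counts scaled to a common library size with edgeR's TMM factors) in the *ife-2*-labelled libraries, at 22.6 to 24.9 CPM in WT20 and at 3.15 to 3.88 CPM in the *eat-2*-labelled libraries. All 20 germ line transcripts examined were called lower in the *ife-2*-labelled libraries than in WT20, with a summed level of 157.8 to 191 CPM against 4051 to 5357 CPM. In the *glp-1*-labelled libraries, a gene needed for germ line proliferation, the sum was 2968 to 4719 CPM. Groups are therefore called by their labels throughout, and no direction reported here is attributed to the mutation in a label. Among the *osm-5* libraries, replicate 3 stood apart, with a TMM factor of 0.427, and results that rest on it are also given without it.

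Most *pals* transcripts were scarce. Over the 36 libraries the median level of the 27 tested members was 0.707 CPM per kb of exon, against 7.50 CPM per kb for the 17325 tested genes with a known length, and 25 of the 27 lay below that median. The highest were *pals-24* at 16.5 CPM per kb and *pals-23* at 8.19 CPM per kb, adjacent genes. *pals-17*, the repressor, followed at 6.82 CPM per kb, then *pals-34* at 3.80, *pals-22*, the other repressor, at 3.35 and *pals-16* at 2.89 CPM per kb. The regulators *pals-25* at 2.11 CPM per kb and *pals-20* at 1.29 CPM per kb were also above the family's median. All 5 regulators thus belonged to the better expressed part of the family.

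*pals-5*, whose promoter is the usual reporter of the intracellular pathogen response, was at the floor of detection. It had 0 to 7 counts in every library, and its total over 6 libraries was highest in *glp-1* (33) and WT20 (27), followed by *ife-2* and *eat-2* (10 each), *osm-5* (9) and WT25 (3). *pals-10* had 1 count in each of 2 groups, WT25 and *glp-1*, and none in the other 24 libraries. *pals-28* had no counts in the 6 *ife-2*-labelled libraries or the 6 labelled *osm-5*, and 16 in all of WT20. Just inside the filter were *pals-27* (10 or more counts in 7 libraries), *pals-8* (8 libraries) and *pals-30* (9 libraries), and just outside it were *pals-2* (5 libraries) and *pals-12* (4 libraries). *pals-27* and *pals-30* passed only through the *glp-1*-labelled libraries, all 6 of which reached 10 counts for both genes against 1 and 3 of the other libraries, so they had to be higher there and their values in that group are a description. *pals-8* reached 10 counts in 3 libraries of WT20 and 3 of *ife-2*. With either of these groups set aside only 5 libraries reached it, so it passed through both together.

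By position in WBcel235, 14 members lay within 61.3 kb on chromosome I (13083321 to 13144623), of which 7 were tested. On chromosome III, *pals-24*, *pals-23*, *pals-22* and *pals-25* lay within 17.5 kb (120435 to 137975), a second group of 7 with *pals-20*, *pals-17*, *pals-16*, *pals-19* and *pals-18* within 29.3 kb (1376945 to 1406263), and *pals-26*, *pals-27* and *pals-28* within 12.6 kb (4375154 to 4387757). *pals-29* and *pals-30* were neighbours on chromosome IV, *pals-37*, *pals-39* and *pals-38* lay within 9.56 kb on chromosome V, and the other 5 members stood alone. Both antagonistic regulator groups are thus in separate clusters of chromosome III. *pals-22* and *pals-25* lie 92 bp apart on the same strand, and *pals-24* and *pals-23* lie 87 bp apart on the same strand. Exons of *pals-3* overlap those of *pals-4* and *pals-12*, those of *pals-18* overlap *pals-19*, and those of *pals-13*, *pals-20*, *pals-26*, *pals-32* and *pals-37* overlap other genes. Whether counting used the strand is not stated, and close paralogs share sequence, so the split of counts within these sets is uncertain.

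The groups differed in which members were high. Of the 27 tested members, 17 had their highest group mean in the *ife-2*-labelled libraries, 9 in those labelled *glp-1* and 1, *pals-1*, in those labelled *osm-5*. That last mean fell to 1.37 CPM without replicate 3, below the 1.83 CPM of *pals-1* in *ife-2*. The lowest mean was in WT25 for 13 members, in *osm-5* for 7, in WT20 for 5 and in *eat-2* for 2. Between the highest and the lowest group the mean differed by 1.45-fold for *pals-25* and by 16.2-fold for *pals-27*, and by 3-fold or more for 19 members. The summed level of all 38 members was 105 to 139 CPM in the *ife-2*-labelled libraries, above every other library, and 41.5 to 71.9 CPM in the other 5 groups.

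**Figure D1:**
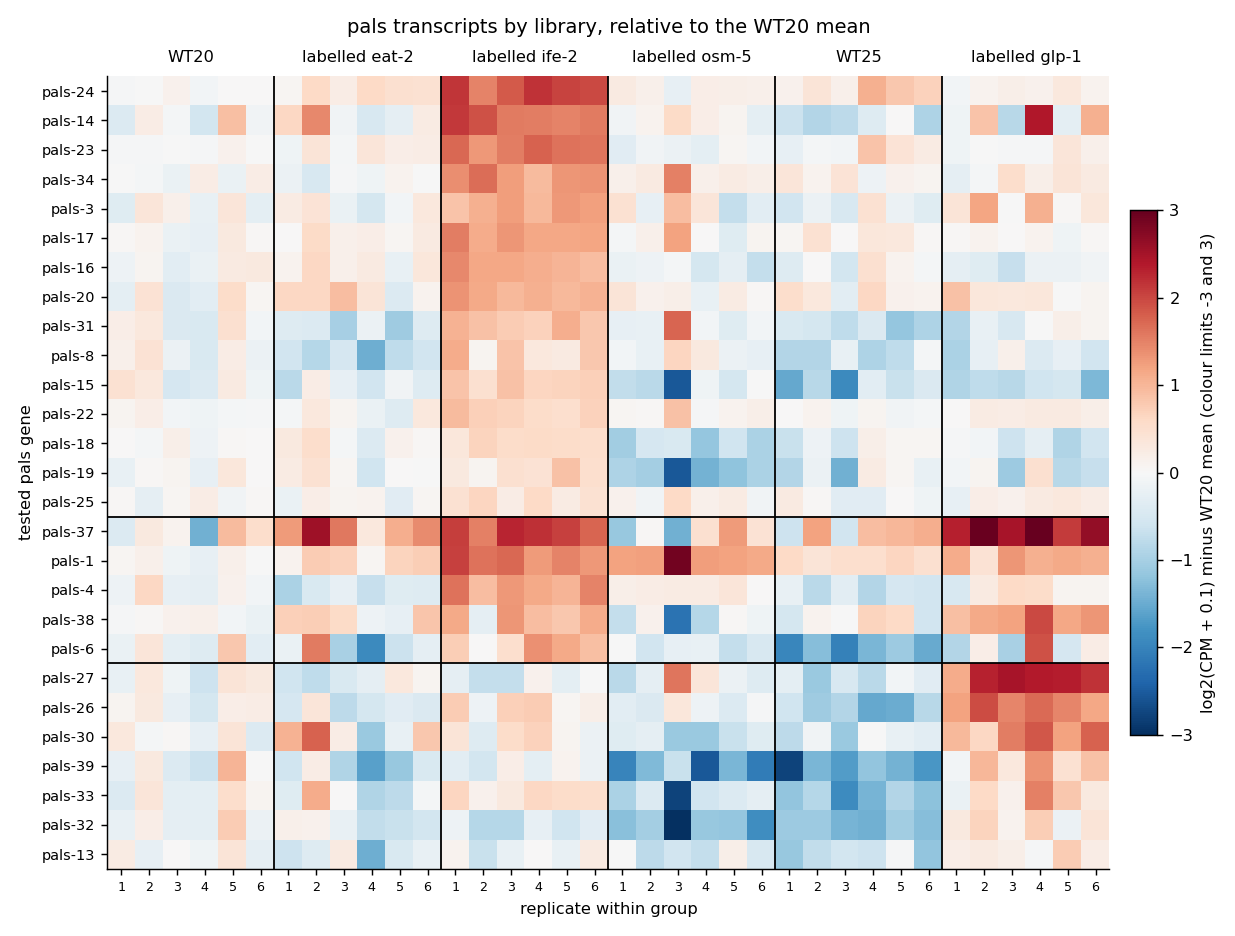
Level of the 27 tested *pals* genes (vertical axis) in each of the 36 libraries (horizontal axis, by group and replicate), as log2(CPM + 0.1) minus the mean of the 6 WT20 libraries, with colours limited to -3 and 3. The upper 15 genes were called higher in the *ife-2*-labelled libraries only, the middle 5 there and in those labelled *glp-1*, and the lower 7 in those labelled *glp-1* only. These calls are against WT20 for *ife-2* and against WT25 for *glp-1*. The genes of the first 2 blocks are red in most *ife-2* columns, *pals-37*, *pals-27* and *pals-26* are darkest under *glp-1*, and *pals-39*, *pals-33* and *pals-32* are blue under WT25.

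Each mutant was compared with the wild type of its labelled temperature, which asks whether the mutants carry altered expression of these genes in the absence of a stated infection. Differences were tested by edgeR's quasi-likelihood test with Benjamini-Hochberg adjustment over the 17457 genes, and called at an adjusted p below 0.01. The 3 comparisons with WT20, of *osm-5*, *ife-2* and *eat-2*, share its 6 libraries, so their results are not independent of each other.

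In the *ife-2*-labelled libraries, 20 of the 27 tested members were called higher than in WT20 and 0 lower, while 42.5% of all genes tested were called higher and 40.5% lower. The 20 include *pals-8*, which the filter kept through WT20 and *ife-2* together, so its value is a description. The median log2 fold change of the 27 was 0.93, against 0.13 for all genes tested. The most abundant pair rose most clearly. *pals-24* was at 9.45 CPM in the lowest, 10.0 in the median and 10.9 in the highest of the WT20 libraries, and at 28.3, 40.6 and 45.8 CPM in those labelled *ife-2*. The groups were far from overlapping, and the log2 fold change was 2.07 ± 0.11 (SE, adjusted p = 4.33e-11 by edgeR's quasi-likelihood test). *pals-23* lay between 8.59 and 9.63 CPM in WT20 and between 21.8 and 30.4 CPM in the *ife-2*-labelled libraries, with a log2 fold change of 1.71 ± 0.08 (SE, edgeR adjusted p = 2.07e-11).

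Less abundant members also rose. *pals-37* had 0 to 0.423 CPM in WT20, with a median of 0.212 CPM, and 0.678 to 1.22 CPM, with a median of 1.03 CPM, in the *ife-2*-labelled libraries. These ranges did not overlap, and its log2 fold change of 2.34 ± 0.43 (SE, edgeR adjusted p = 0.000110) was the largest of the family. *pals-14* was at 0.280, 0.422 and 0.927 CPM (lowest, median, highest) in WT20 and at 1.44, 1.52 and 2.31 CPM in the *ife-2*-labelled libraries, a log2 fold change of 1.90 ± 0.26 (SE, edgeR adjusted p = 5.48e-06). *pals-1*, which stands alone on chromosome I, was at 0.439 to 0.610 CPM against 1.44 to 2.52 CPM, a log2 fold change of 1.85 ± 0.17 (SE, edgeR adjusted p = 4.43e-08). Of the 20 members called, 16 had no overlap between the 12 libraries, in a comparison in which 83% of all genes were called in either direction and 88.5% of those called had no overlap. *pals-6* and *pals-8*, each with a log2 fold change of 0.93, were the least secure, since their calls were lost when any of 7 or 8 single libraries was left out (edgeR adjusted p up to 0.0179 and 0.0270). With all 36 libraries in 1 fit 16 members were called higher, and *pals-6*, *pals-8*, *pals-15* and *pals-19* were not (edgeR adjusted p = 0.107, 0.0337, 0.0451 and 0.103). *pals-33* was called as well without replicate 5 of WT20 (edgeR adjusted p = 0.00414).

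All 5 regulators were called higher in the *ife-2*-labelled libraries, the repressors and their antagonists alike. *pals-22* was at 2.34, 2.496 and 2.97 CPM (lowest, median, highest) in WT20 and at 3.69, 4.17 and 5.01 CPM in the *ife-2*-labelled libraries. *pals-25* was at 1.70, 2.11 and 2.42 CPM against 2.43, 2.87 and 3.26 CPM. Neither gene overlapped between the groups, although the highest WT20 library and the lowest *ife-2* library nearly met for *pals-25*. The log2 fold changes were 0.80 ± 0.10 for *pals-22* and 0.56 ± 0.11 for *pals-25* (SE, edgeR adjusted p = 1.49e-06 and 0.000263). For *pals-17* the ranges were 3.71 to 5.44 CPM and 9.69 to 13.1 CPM, a log2 fold change of 1.36 ± 0.11, for *pals-16* they were 2.09 to 3.28 CPM and 5.11 to 7.35 CPM, 1.25 ± 0.13, and for *pals-20* they were 0.648 to 1.39 CPM and 1.89 to 2.49 CPM, 1.21 ± 0.19 (SE).

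By position, 6 of the 7 tested members of the chromosome I cluster, all 4 of the *pals-22* cluster and all 5 of the *pals-17* cluster were called higher, but neither *pals-26* nor *pals-27* was. The 6 include *pals-8*, which passed the filter through WT20 and *ife-2* together. The 7 members not called were *pals-13*, *pals-26*, *pals-27*, *pals-30*, *pals-32*, *pals-33* and *pals-39*, with log2 fold changes from -0.49 to 0.59. The 11 untested members did not form a common pattern. *pals-12* had 49 counts in the 6 *ife-2*-labelled libraries against 20 in WT20, and *pals-9* had 37 against 22, whereas *pals-2* had 24 against 51 and *pals-28* had 0 against 16.

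The *ife-2*-labelled libraries differed from WT20 in tissue transcripts as well, which moved with the *pals* genes. Besides the 20 germ line transcripts, 13 of 15 oocyte transcripts were called lower, and the other two, *perm-2* and *perm-4*, were called higher. All 12 intestinal transcripts were called higher, with a median log2 fold change of 1.31 and a summed level of 9577 to 14867 CPM against 4043 to 4196 CPM, and of 10 epidermal transcripts 5 were called higher and 2 lower. A rise of the *pals* genes per cell and a larger share of somatic RNA cannot be told apart in whole worms. The result also depended on scaling. Over all genes the median log2 difference was 0.13 with TMM, -0.14 with DESeq2 size factors, -0.39 with total counts and 0.60 with upper-quartile scaling, and the *pals* genes called were 20 higher and 0 lower, 15 and 1, 11 and 1, and 22 and 0. The median of the 27 exceeded that of all genes under each of these scalings (0.93, 0.67, 0.43 and 1.40). *pals-32* was the member called lower (-0.72 and -0.97). *pals-25* kept a positive sign under each but was not called with DESeq2 size factors (0.28) or with total counts (0.03), and *pals-22* was not called with total counts (0.28).

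Other genes of the response moved in these libraries too. The CUL-6 ubiquitin ligase includes products of the response and attaches ubiquitin to other proteins, and all 6 of its tested components were called higher than in WT20, among them *cul-6* itself with a log2 fold change of 1.66 ± 0.16 and its adaptor *skr-4* with 1.62 ± 0.08 (SE). *skr-5* rose least (0.58 ± 0.15) and lost its call with DESeq2 size factors (0.31) or total counts (0.05), as *fbxa-158* did with total counts (0.58). All 3 other tested response genes were called higher, *sdz-6* at 5.54 ± 0.28, *eol-1*, related to RNA decapping enzymes, at 1.63 ± 0.28, and *F26F2.1* at 1.39 ± 0.18 (log2 fold change, SE). So were the 3 tested genes of the response to oomycetes, the chitinase-like gene *chil-10* (1.20 ± 0.05) and the receptor kinase genes *flor-1* (1.16 ± 0.13) and *old-1* (0.86 ± 0.15). Of 5 regulators outside the family, *sta-1*, *pnp-1* and *zip-1* were called higher (0.86, 0.57 and 0.49), and *drh-1*, the viral RNA sensor, and *lin-35*, the retinoblastoma homologue, were called lower (-1.18 and -3.05). With total counts *old-1* (0.35), *pnp-1* (0.04) and *zip-1*, whose sign turned (-0.02), were not called.

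**Figure D2:**
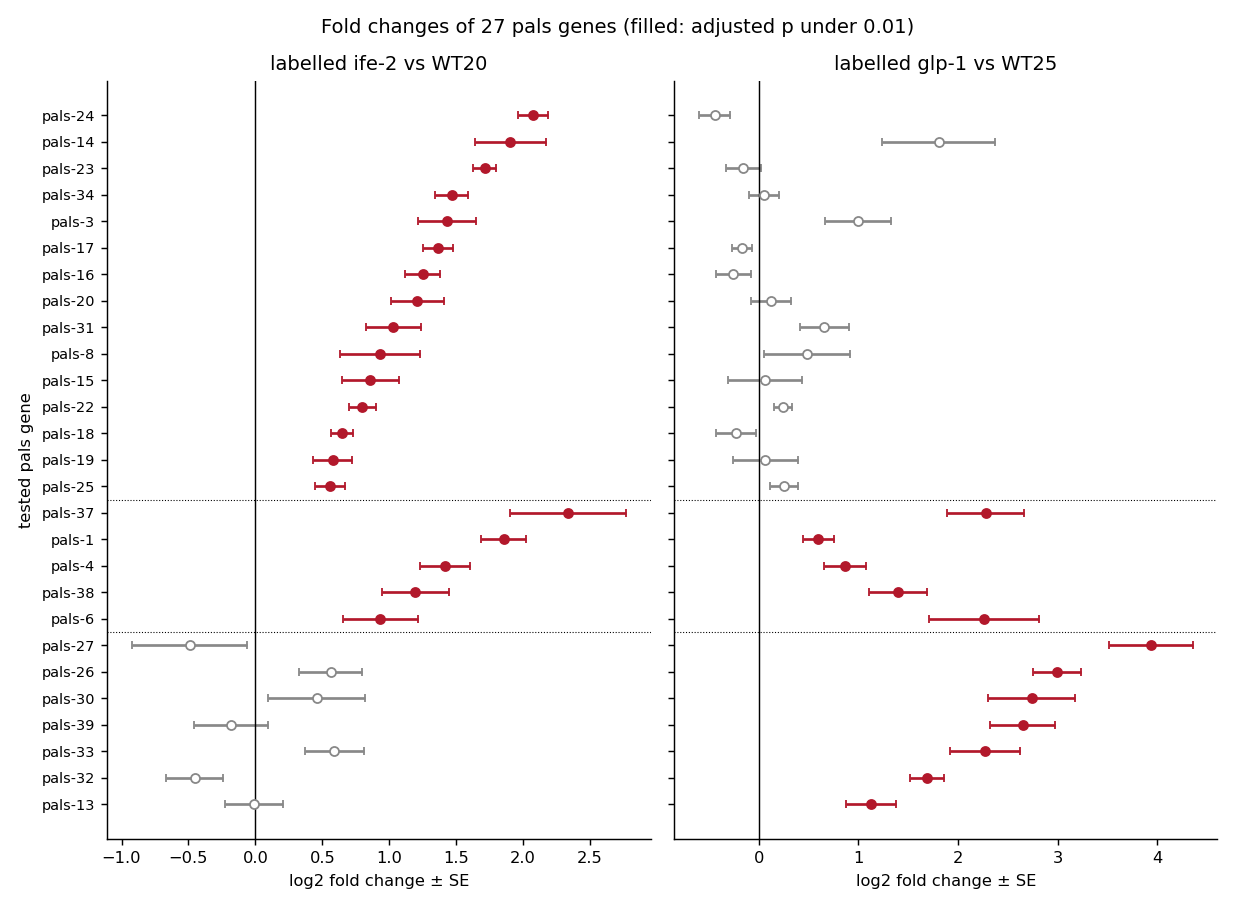
Log2 fold changes with standard errors (horizontal axes, scales differ between panels) of the 27 tested *pals* genes in the *ife-2*-labelled libraries against WT20 (left) and those labelled *glp-1* against WT25 (right), 6 libraries each, with filled points for adjusted p below 0.01. The left panel has 20 filled points and the right 12, of which 5 genes are filled in both, and *pals-24* is at 2.07 on the left and at -0.44 on the right.

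In the *glp-1*-labelled libraries, 12 of the 27 tested members were called higher than in WT25 and 0 lower, where 11.6% of all genes tested were called higher and 10.6% lower. The median log2 fold change of the 27 was 0.66, against 0.02 for all genes. Without *pals-27* and *pals-30*, which the filter kept through this group, 10 of 25 members were called higher and the median was 0.60. *pals-27*, a gene with few counts, had 0, 0.0634 and 0.104 CPM (lowest, median, highest) in WT25, which are 0 to 5 counts, and 0.364, 0.988 and 1.11 CPM in the *glp-1*-labelled libraries, 17 to 57 counts. Its fitted log2 fold change was 3.94, given as a description. Its neighbour *pals-26* was at 0.137, 0.252 and 0.352 CPM in WT25 and at 1.43, 1.80 and 2.57 CPM in the *glp-1*-labelled libraries, 3.00 ± 0.24 on the log2 scale (SE, edgeR adjusted p = 1.24e-06). The third gene of this cluster, *pals-28*, had 14 counts in all in the *glp-1*-labelled libraries and 2 in WT25.

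Members on chromosomes IV and V followed. *pals-30* was at 0 to 0.114 CPM in WT25 and at 0.229 to 0.677 CPM in the *glp-1*-labelled libraries, with a fitted log2 fold change of 2.74, likewise a description. *pals-39* was at 0.101, 0.374 and 0.504 CPM in WT25 and at 1.20, 2.11 and 3.40 CPM in the *glp-1*-labelled libraries, 2.65 ± 0.32, and *pals-37* beside it was at 0.0755, 0.425 and 0.531 CPM and at 1.07, 1.49 and 2.46 CPM, 2.28 ± 0.39 on the log2 scale (SE, edgeR adjusted p = 4.47e-05 and 0.000553). Neither of them overlapped between the groups, and with *pals-38* (1.40 ± 0.29) all 3 genes of their cluster were called. The other members called were *pals-33* (2.27), *pals-6* (2.26), *pals-32* (1.69), *pals-13* (1.13), *pals-4* (0.87) and *pals-1* (0.60). Of the 12, 10 had no overlap between the groups, where 22.2% of all genes were called in either direction and 82.2% of those called had no overlap. The calls of *pals-1*, *pals-4* and *pals-6* were lost when any of 11, 8 and 6 single libraries was left out, with edgeR adjusted p up to 0.0221, 0.0149 and 0.0148. *pals-14* (1.81 ± 0.57) was not called here. It was called without replicate 3 of *glp-1* (edgeR adjusted p = 0.00915) and with all 36 libraries in 1 fit (edgeR adjusted p = 0.00255).

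*pals-6* rested partly on 1 library. It was at 0.396, 0.799 and 3.55 CPM (lowest, median, highest) in the *glp-1*-labelled libraries and at 0.138, 0.257 and 0.354 CPM in WT25, and the next highest after replicate 4 was at 1.04 CPM. Leaving out single libraries gave log2 fold changes of *pals-6* from 1.505, without that replicate, to 2.44. None of the 5 regulators was called. Their log2 fold changes were 0.24 ± 0.09 for *pals-22*, 0.25 ± 0.14 for *pals-25*, -0.17 ± 0.10 for *pals-17*, 0.12 ± 0.20 for *pals-20* and -0.26 ± 0.18 for *pals-16* (SE), so differences as large as those of *pals-17*, *pals-20* and *pals-16* in the *ife-2*-labelled libraries would lie outside these errors. *pals-24*, the most abundant member, was at 9.46 to 12.6 CPM in the *glp-1*-labelled libraries and at 10.99 to 21.1 CPM in WT25 (-0.44 ± 0.16, edgeR adjusted p = 0.0418).

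Among the other response genes, *eol-1* was higher in the *glp-1*-labelled libraries than in WT25 by 3.45 ± 0.29 on the log2 scale (SE), from 0.0687 to 0.221 CPM up to 0.792 to 1.73 CPM. Of the 6 tested CUL-6 ligase genes 2 were called, *fbxa-158*, an F-box gene, at 2.38 ± 0.50 and *skr-5* at 1.10 ± 0.18, while *cul-6* itself was at 0.13 ± 0.17 (SE). Of the oomycete response genes *chil-10* and *old-1* were called higher (1.495 and 0.85) and *flor-1* lower (-1.03), and none of the 5 regulators outside the family was called. Tissue transcripts moved less than in the *ife-2*-labelled libraries. Of 20 germ line transcripts 6 were called lower, as were 5 of 12 intestinal ones, and none of 15 oocyte or 10 epidermal transcripts was called.

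The result depended on the control. WT25 held the lowest mean of the 6 groups for many of these genes, and against WT20 the *glp-1*-labelled libraries had 6 members called higher and 1 lower, instead of 12 and 0, where 13.7% of all genes tested were called higher and 13.3% lower. Without *pals-27* and *pals-30* these were 4 and 1 of 25. *pals-37* (2.98 ± 0.46), *pals-26* (1.64 ± 0.20), *pals-38* (1.55 ± 0.21) and *pals-1* (1.17 ± 0.17, log2 fold change, SE) were higher than in either wild type, and *pals-27* and *pals-30* were at 2.84 and 1.94. The other 6 of the 12 had log2 fold changes of 0.22 to 0.68 against WT20 and were not called, and *pals-15* was called lower (-1.09 ± 0.26). Likewise *eol-1* was higher than in both (1.24 ± 0.28 against WT20), but *fbxa-158* was at -0.07 ± 0.34 against WT20, and *skr-5* changed sign and was called lower (-0.59 ± 0.15, SE). *flor-1*, lower than in WT25, was not called against WT20 (-0.38).

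**Figure D3:**
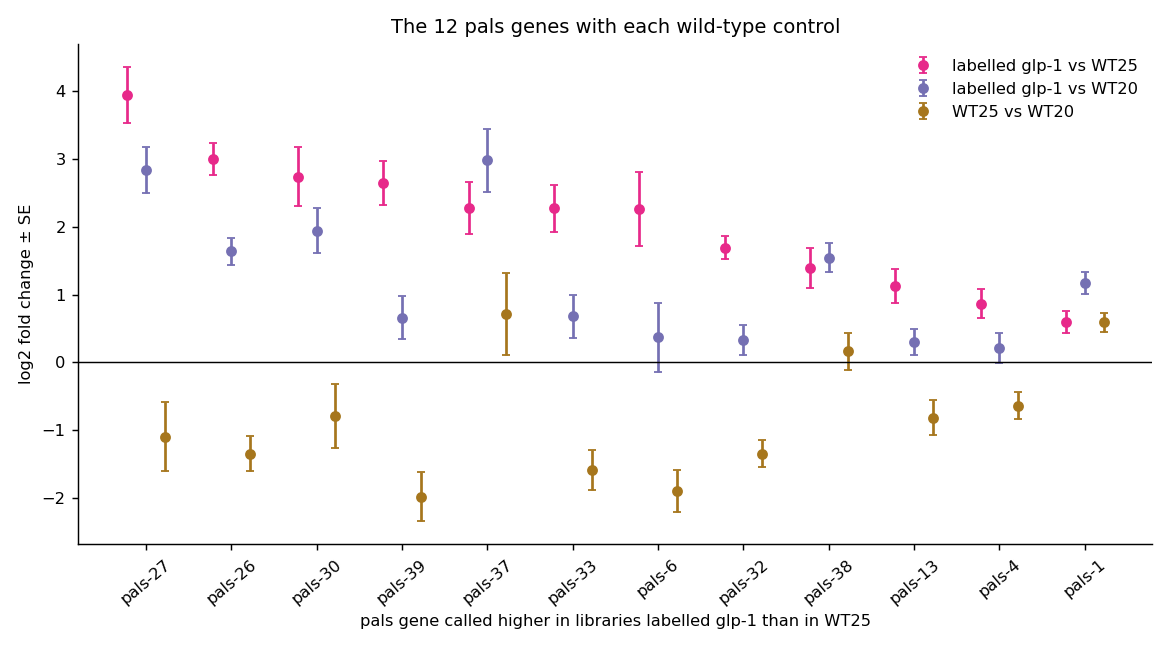
Log2 fold changes with standard errors (vertical axis) of the 12 *pals* genes called higher in the *glp-1*-labelled libraries than in WT25, against each wild type, and of WT25 against WT20, 6 libraries per group. *pals-26*, *pals-37* and *pals-38* are well above 0 with both controls. So are *pals-27* and *pals-30*, which the filter kept through the *glp-1*-labelled libraries, while *pals-1* is only at 0.60 ± 0.16 against WT25. *pals-39*, *pals-33*, *pals-6* and *pals-32* are high mainly against WT25, which is itself below WT20.

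Between the wild types, 2 of the 27 tested members were called higher in WT25 than in WT20 and 5 lower, while 23.1% of all genes tested were called, 13.3% higher and 9.76% lower. The 5 lower ones were *pals-39* (log2 fold change -1.98 ± 0.36), *pals-6* (-1.90 ± 0.31), *pals-33* (-1.59 ± 0.29), *pals-32* (-1.35 ± 0.20) and *pals-26* (-1.34 ± 0.26, SE). *pals-32* was at 2.14, 2.3002 and 4.55 CPM (lowest, median, highest) in WT20 and at 0.916, 1.10 and 1.23 CPM in WT25, and *pals-39* was at 0.779, 1.17 and 2.68 CPM and at 0.101, 0.374 and 0.504 CPM. No WT25 library reached the lowest WT20 library for either gene. All 5 were also called higher in the *glp-1*-labelled libraries than in WT25, but those 2 comparisons share the WT25 libraries.

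*pals-1* (0.59 ± 0.14) and *pals-24* (0.59 ± 0.15, log2 fold change, SE) were called higher in WT25. Both calls were fragile, lost when any of 6 and 10 single libraries was left out, with edgeR adjusted p up to 0.0150 and 0.0231, and with total counts 7 members were called lower and 0 higher. *pals-13* was also called lower without replicate 5 of WT25, and *pals-31* without replicate 3 or 4 of WT20 (edgeR adjusted p = 0.00416, 0.00676 and 0.00822). The 5 regulators had log2 fold changes of -0.07 to 0.23 and none was called. Of the other response genes *fbxa-158* (-2.44), *eol-1* (-2.19) and *skr-5* (-1.68) were lower in WT25, as were the regulators *zip-1* (-0.37) and *pnp-1* (-0.32), while *sdz-6* (1.67) and *flor-1* (0.68) were higher. Of 12 intestinal transcripts 7 were called higher in WT25, as were 3 of 20 germ line ones, and none of 15 oocyte transcripts was called. The temperature rests on 1 field of the labels, and what else differed between WT20 and WT25 is not stated.

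In the *osm-5*-labelled libraries, 1 of the 27 tested members was called higher than in WT20 and 3 lower, where 16.9% of all genes tested were called, 6.52% higher and 10.4% lower. *pals-1* was at 1.30, 1.39 and 4.64 CPM (lowest, median, highest) in the *osm-5*-labelled libraries, all above the 0.610 CPM of the highest WT20 library, with a log2 fold change of 1.87 ± 0.36 (SE, edgeR adjusted p = 0.00223). The highest of these values is that of replicate 3, and the other 5 libraries lay between 1.30 and 1.41 CPM. Without replicate 3 the log2 fold change was 1.37 ± 0.13. The members called lower were *pals-39* (-1.87 ± 0.44), *pals-19* (-1.30 ± 0.25) and *pals-18* (-0.75 ± 0.16, log2 fold change, SE).

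*pals-19* was at 0.331, 1.07 and 1.23 CPM in the *osm-5*-labelled libraries and at 2.04, 2.46 and 3.08 CPM in WT20, and its neighbour *pals-18* was at 1.33 to 2.21 CPM against 2.76 to 3.51 CPM. These adjacent genes share exon sequence on the same strand, so their separate values are uncertain. *pals-17*, *pals-16* and *pals-20* of the same cluster were at 0.32, -0.29 and 0.13, and none was called. *pals-39* kept log2 fold changes of -2.17 to -1.56 with single libraries left out but lost its call without any of 10 of them (edgeR adjusted p up to 0.0205), and *pals-18* lost its call without replicate 3 of WT20 or replicate 6 of *osm-5* (up to 0.0108). Without replicate 3, *pals-24* (0.22) was added to the higher members and *pals-32* (-1.37) to the lower ones, which made 2 higher and 4 lower. Of the 17457 genes tested, 3826 were then called higher and 3831 lower, against 1139 and 1809 with it. The median log2 fold change of the 27 was 0.05 with it and -0.27 without it. With WT25 as the control 2 members were called higher and 0 lower, where 334 of the 17457 genes tested were called higher and 835 lower. Outside the family, *sdz-6* was at 2.55 to 19.4 CPM in the *osm-5*-labelled libraries against 0.0208 to 0.126 CPM in WT20 (6.24 ± 0.70, and 5.35 ± 0.22 without replicate 3, log2 fold change, SE), and *skr-4* was called higher (0.49). *sta-1* (-0.36) and *pnp-1* (-0.62) were called lower. The calls of *skr-4*, *sta-1* and *pnp-1* were lost with total counts (0.17, -0.68 and -0.89), and without replicate 3 *skr-5* was also called lower (-0.81) and *chil-10* (0.21) and *flor-1* (0.63) higher. Of 10 epidermal transcripts 6 were called lower and 1 higher.

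In the *eat-2*-labelled libraries, 1 of the 27 tested members was called higher than in WT20 and 0 lower, although 29.9% of all genes tested were called in either direction. The member was *pals-24*, at 10.5, 13.9 and 15.4 CPM (lowest, median, highest) against 9.45, 10.0 and 10.9 CPM in WT20, with a log2 fold change of 0.41 ± 0.09 (SE, edgeR adjusted p = 0.00217). The ranges overlapped by the lowest *eat-2* library, and the call was lost with all 36 libraries in a single fit (edgeR adjusted p = 0.0194) and with total counts (0.0203). The median log2 fold change of the 27 was 0.02, and *pals-37* (1.69) and *pals-8* (-1.43) had the largest differences that were not called (edgeR adjusted p = 0.0213 and 0.0121). *pals-8* passed the filter through WT20 and *ife-2* together, which favours a high value in WT20, so its values here are a description. Without replicate 4 of *eat-2*, *pals-1* and *pals-37* were also called higher and *pals-8* lower. In that fit 3789 of the 17457 genes tested were called higher and 2762 lower. At an unadjusted p below 0.05, 8 of the 27 members passed, against 54.9% of all genes tested. In the CUL-6 ligase, *rcs-1* was called higher (0.52) and *skr-5* lower (-1.49). Of the tissue transcripts, 3 of 15 oocyte ones were called lower, and 6 of 12 intestinal and 3 of 10 epidermal ones higher. Set against WT25, the same libraries had 51 genes called of 17457, 18 higher and 33 lower, and no member of the *pals* family among them.

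**Figure D4:**
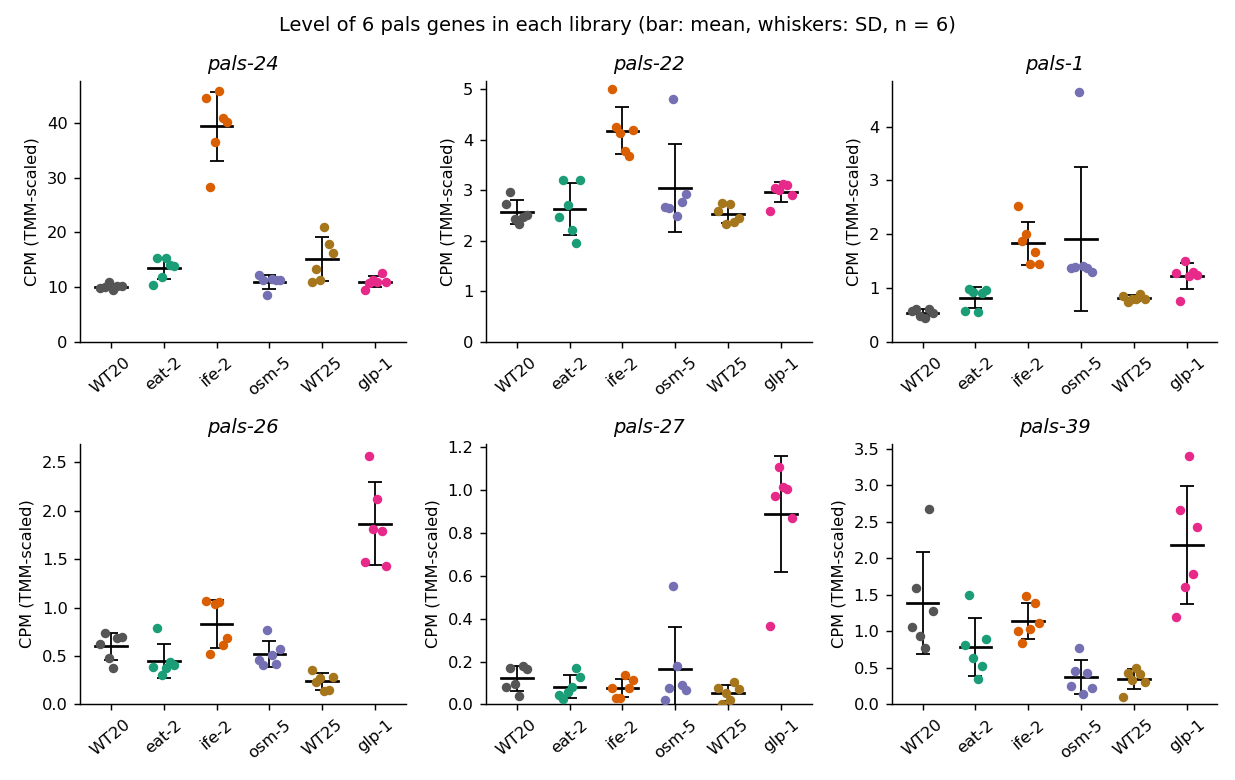
Level in CPM (vertical axes, starting at 0, scales differ) of 6 *pals* genes in each library of the 6 groups, with points for libraries, bars for means and whiskers for the SD (n = 6). *pals-24* and *pals-22* are highest under *ife-2*, *pals-26* and *pals-27* under *glp-1*, *pals-39* is low under *osm-5* and WT25, and *pals-1* has 1 library of *osm-5* at 4.64 CPM.

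The comparisons of *ife-2* with WT20 and of *glp-1* with WT25 share no libraries. All 27 members were called higher in one or the other, as were 48.0% of all genes tested, but 23 with DESeq2 size factors, 21 with total counts and 24 with all 36 libraries in 1 fit. The 27 include *pals-27* and *pals-30*, called only in *glp-1*, the group through which the filter kept them. The 27 also include *pals-8*, called only in *ife-2* and kept through WT20 and *ife-2* together. Of all genes tested, 42.5% were called higher in *ife-2* and 11.6% in *glp-1*. Of the members, 5 were called in both (*pals-1*, *pals-4*, *pals-6*, *pals-37* and *pals-38*), 15 only in *ife-2* and 7 only in *glp-1*. This split depended on the wild type used. With WT25 as the control for *ife-2*, which both comparisons then share, 23 members were called higher in *ife-2* and 0 lower. Of the 17457 genes tested, 7136 were called higher and 6603 lower in that comparison. Among the 23 members were *pals-33* (log2 fold change 2.101), *pals-26* (1.83), *pals-39* (1.73) and *pals-32* (0.82), and *pals-13*, *pals-27*, *pals-30* and *pals-38* were not called. Whether the effects differed was tested as the log2 fold change in *glp-1* minus that in *ife-2*, by edgeR's quasi-likelihood test on the 24 libraries, a test chosen after the data were seen. It was higher for 7 members and lower for 9, in a test that called 70.7% of all genes, 41.4% higher and 29.3% lower. The 7 were those called only in *glp-1*: *pals-27* (4.48 ± 0.63), *pals-39* (2.88 ± 0.44), *pals-26* (2.48 ± 0.34), *pals-30* (2.33 ± 0.60), *pals-32* (2.19 ± 0.28), *pals-33* (1.73 ± 0.41) and *pals-13* (1.19 ± 0.33, SE). *pals-27* and *pals-30* are among them through the filter, and without them 5 of 25 were higher. The effects were taken against different wild types, and WT25 was itself low for several of these genes. Against WT20, whose libraries both comparisons then share, the log2 fold changes in *glp-1* and in *ife-2* were 0.68 and 0.59 for *pals-33*, 0.66 and -0.18 for *pals-39*, 0.33 and -0.45 for *pals-32*, 0.30 and -0.01 for *pals-13* and 1.64 and 0.56 for *pals-26*. Set side by side these lie closer together than the effects against separate wild types, and that difference was not tested.

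The 9 with the lower effect in *glp-1* included *pals-24* (-2.46 ± 0.20), *pals-23* (-1.81 ± 0.20) and 4 of the 5 regulators, *pals-17* (-1.48 ± 0.15), *pals-16* (-1.46 ± 0.22), *pals-20* (-1.04 ± 0.28) and *pals-22* (-0.51 ± 0.12, SE). *pals-34*, *pals-1* and *pals-18* made up the rest. For *pals-25* the difference of -0.25 ± 0.18 was not called, nor was that of *pals-37* (-0.02 ± 0.44). *pals-1* was called in both comparisons and still differed (-1.20 ± 0.22, edgeR adjusted p = 2.78e-05). The counts moved with scaling, from 8 higher and 5 lower with total counts to 5 and 11 with upper-quartile scaling, and with total counts *pals-22* changed sign (0.15, not called). By position, *pals-26* was called in *glp-1* and, against WT20, not in *ife-2*, but against WT25 it was called in *ife-2* as well. Its tested neighbour *pals-27* passed the filter only through *glp-1*, so its call there is a description. Members of the *pals-22* and *pals-17* clusters were called in *ife-2* and not in *glp-1*. The large chromosome I cluster and the chromosome V cluster had members called in both. Of the 17 tested members on the list of genes that rise in *nuo-6* mutants through ATFS-1, a mitochondrial stress factor, 12 were called higher in *ife-2* and 7 in *glp-1*, and of the 10 other members 8 and 5. The study chose that list, so these counts are a description, beside 42.5% and 11.6% of all genes tested called higher. The 7 include *pals-27* and the 5 include *pals-30*, which the filter kept through *glp-1*. The 8 include *pals-8*, kept through WT20 and *ife-2* together.

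Within groups the libraries differed for many members at once. In WT20, replicate 5 was the highest library for 15 of the 27 tested members, in *eat-2* replicate 2 for 17, in *osm-5* replicate 3 for 14, in WT25 replicate 4 for 12 and in *glp-1* replicate 4 for 11. In each of these 5 groups the same library also had the highest summed *pals* level and the lowest summed level of the 15 oocyte transcripts, for example 4962 CPM in replicate 5 of WT20, where the other 5 libraries lay between 6504 and 8211 CPM. The share of all genes tested that were highest in that library was 30.5%, 33.8%, 40.5%, 23.9% and 19.5%, in the order given. In the *ife-2*-labelled libraries, whose oocyte sum is nearly all *perm-2* and *perm-4*, replicate 1 was highest for 11 members and did not have the lowest oocyte sum. The reverse was less regular, since the library with the highest oocyte sum had the lowest *pals* sum in 2 of the 6 groups. It was the lowest library for 16, 13, 16, 4, 6 and 5 of the 27 members in WT20, *eat-2*, *ife-2*, *osm-5*, WT25 and *glp-1*, and for 24.3%, 26.3%, 23.6%, 14.3%, 28.5% and 25.3% of all genes tested. The comparison with oocyte transcripts was chosen after the data were seen, and their part in the differences between groups was not tested.

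**Figure D5:**
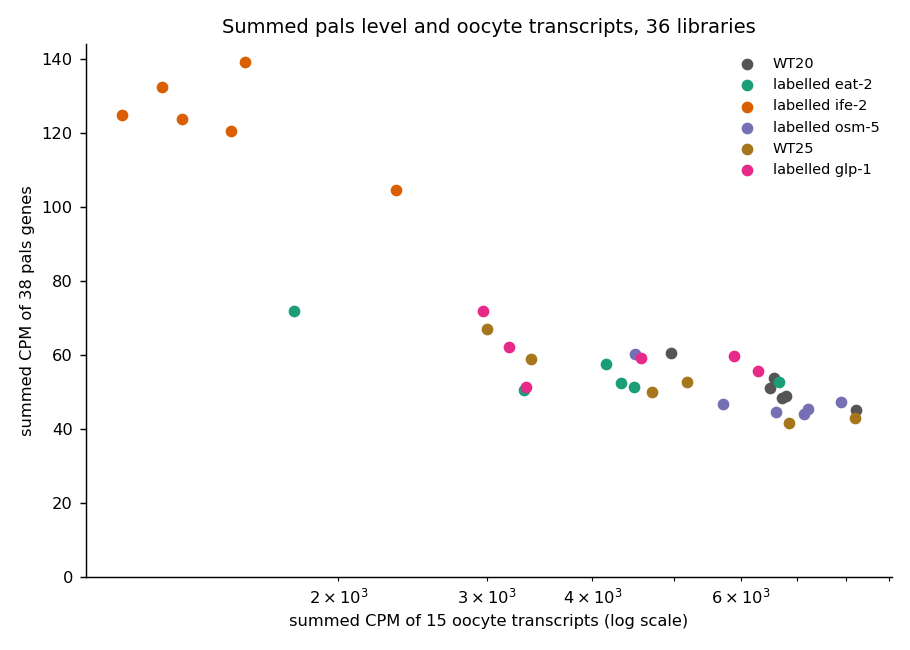
Summed level of the 38 *pals* genes in CPM (vertical axis, from 0) against the summed level of 15 oocyte transcripts in CPM (horizontal log axis) in the 36 libraries, coloured by group. Within WT20, *eat-2*, *osm-5*, WT25 and *glp-1* the leftmost library is also the highest, and the 6 *ife-2*-labelled libraries lie apart at 105 to 139 CPM.

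Pairs of members varied together only in part. Over 35 libraries, without replicate 3 of *osm-5*, the correlation of their deviations from the group means had a median of 0.23 across the 351 pairs, and 0.17 with all 36, against 0.005 for pairs of all tested genes. Over those 35 libraries 1.14% of the member pairs had a correlation above 0.7, against 3.01% of pairs of all tested genes. All members of a library share its depth and preparation, so these are descriptions without a test. The strongest pairs were *pals-23* with *pals-24* (0.88), *pals-6* with *pals-14* (0.81), *pals-6* with *pals-33* (0.77) and *pals-18* with *pals-19* (0.75). The 41 pairs within a position cluster had a median of 0.25 and the 310 others one of 0.23. *pals-6* and *pals-33* are on different chromosomes, and both were highest in replicate 2 of *eat-2* and in replicate 4 of *glp-1*.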

How the data were processed

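Polyadenylated RNA of whole *C. elegans* was sequenced in 36 libraries. The submitters' processing notes name cutadapt, STAR and Salmon with the build WBcel235, and by the study's methods the authors obtained transcript estimates from Salmon (Ensembl release 90) and summed these per gene by tximport. Versions are not given in the sources used here. The deposited values are estimated counts per gene, whole numbers without normalization, and were used as they stood. Names, positions and exon lengths came from Ensembl WBcel235 release 115, which matched 45842 of 46093 identifiers.

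The filter kept genes that reached 10 counts in 6 or more of the 36 libraries. They were compared with edgeR 4.0.16 in R 4.3.3 (glmQLFit, glmQLFTest, TMM), 12 libraries per fit, with calls at 0.01 after Benjamini-Hochberg adjustment. The study used DESeq2, which was run as an alternative (1.42.0). The test was tested on simulated data. Levels are CPM on TMM sizes of all 36 libraries. Correlations used log2 CPM with a prior count of 2. Counts ran from 35524715 to 55878280 per library, and p-values cover only the spread between libraries, said to be biological replicates.

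Alternatives were DESeq2, its size factors, total counts, upper-quartile scaling, no or another filter, all 36 libraries in 1 fit, a replicate block, an adjusted p below 0.05, a 2-fold limit, the other wild type as control, a prior count of 0.5 and leaving out each library. Libraries were grouped by their labels, none was left out, and the labels give no batch. The members, gene lists and tests were chosen with earlier results of these data known. Named are the regulators and *pals-5*, the 6 highest members per kb, the 5 largest changes called in each comparison, members at the filter, and called genes of the response lists. Other members with values were chosen after these were seen.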

Additional observations from a re-analysis of the deposited data

Results flagged for a closer look

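Of 162 groups of 6 libraries, 21 held a library set apart from the others by Dixon's test, where chance gives about 1 in 20. Replicate 3 of *osm-5* was high for *pals-1* (4.64 CPM), *pals-17* (10.4), *pals-22* (4.80), *pals-27* (0.552), *pals-31* (2.21) and *pals-34* (6.13 CPM) and low for *pals-24* (8.50 CPM). Replicate 2 of *eat-2* was high for *pals-6* (2.76 CPM), *pals-26* (0.790) and *pals-33* (1.37 CPM). Replicate 4 of *glp-1* was high for *pals-6* (3.55 CPM), *pals-14* (2.82) and *pals-38* (1.75 CPM). The other values in the libraries labelled *glp-1* were *pals-13* at 1.11 CPM and *pals-17* at 4.04 CPM in replicate 5, *pals-20* at 1.78 CPM and *pals-27* at 0.364 CPM in replicate 1, and *pals-1* at 0.762 CPM in replicate 2. In wild type, *pals-3* was at 0.412 CPM in replicate 4 of WT25, and *pals-23* at 9.63 CPM and *pals-32* at 4.55 CPM in replicate 5 of WT20. The 7 values of *osm-5* replicate 3 are in the library with the TMM factor of 0.427.

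For 16 members the effect in the libraries labelled *glp-1* differed from that in the libraries labelled *ife-2* in edgeR's quasi-likelihood test of the difference. On the log2 scale it was higher for *pals-27* (4.48), *pals-39* (2.88), *pals-26* (2.48), *pals-30* (2.33), *pals-32* (2.19), *pals-33* (1.73) and *pals-13* (1.19). It was lower for *pals-24* (-2.46), *pals-23* (-1.81), *pals-17* (-1.48), *pals-16* (-1.46), *pals-34* (-1.36), *pals-1* (-1.20), *pals-20* (-1.04), *pals-18* (-0.82) and *pals-22* (-0.51). *pals-27* and *pals-30* passed the filter only through the *glp-1*-labelled libraries.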

How the results depend on the processing

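Among the changes in the counts of *pals* genes called higher and lower were the following. With a limit of 0.05 *eat-2* had 3 and 3, *glp-1* gained 1 lower and WT25 had 10 lower. With a 2-fold limit *eat-2* had 0 higher, *ife-2* 13 and WT25 0. DESeq2 gave 2 higher for *eat-2*, 1 lower for *ife-2* and 1 higher for WT25, and its size factors 15 and 1 for *ife-2* and 11 higher for *glp-1*. With total counts *eat-2* had 0 and 1, *ife-2* 11 and 1, *osm-5* 2 lower, *glp-1* 13 higher, WT25 0 and 7, and the difference between *glp-1* and *ife-2* 8 and 5. Upper-quartile scaling gave 22 higher for *ife-2*, 1 higher for WT25 and 5 and 11 for that difference, and no filter 1 lower for *ife-2* and 1 higher for WT25. All 36 libraries in 1 fit gave 0 and 1 for *eat-2*, 16 higher for *ife-2*, 4 lower for *osm-5*, 1 lower for *glp-1* and 1 higher for WT25. With the other wild type *eat-2* had 0 higher, *ife-2* 23 higher, *osm-5* 2 and 0 and *glp-1* 6 and 1.

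Signs turned for small log2 differences. In *eat-2* these were *pals-22* (-0.083 with total counts), *pals-25* (0.022 upper-quartile, 0.0024 without filter, 0.069 against WT25) and, against WT25, *pals-24* (-0.17), *pals-23* (-0.060) and *skr-5* (0.21). In *ife-2* it was *zip-1* (-0.023, total counts). In *osm-5* total counts gave *pals-22* -0.13, *pals-25* -0.17, *pals-17* -0.18, *pals-20* -0.20 and *pals-24* -0.12, and WT25 as control *pals-20* -0.12, *pals-24* -0.44 and *pals-39* 0.091. In *glp-1* total counts gave *pals-17* 0.020 and *pals-23* 0.022, and WT20 as control *pals-17* 0.022, *pals-24* 0.13, *pals-23* 0.066, *skr-5* -0.59 and *fbxa-158* -0.065. In WT25 *pals-34* was at -0.022 and in the difference *pals-22* at 0.15 (total counts). The causes were not tested.

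Leaving out single libraries gave 1 to 3 higher and 0 to 1 lower for *eat-2*, 18 to 20 and 0 for *ife-2*, 1 to 2 and 1 to 4 for *osm-5*, 9 to 11 and 0 for *glp-1*, and 0 to 2 and 5 to 6 for WT25. Among regulators and abundant members whose sign turned, the log2 fold changes ran from -0.048 to 0.10 for *pals-22* and -0.068 to 0.041 for *pals-25* in *eat-2*, from -0.010 (without replicate 3) to 0.42 for *pals-17* in *osm-5*, from -0.024 to 0.23 for *pals-20*, -0.22 to 0.023 for *pals-23* and -0.027 to 0.13 for *pals-34* in *glp-1*, and from -0.070 to 0.013 for *pals-22* and -0.19 to 0.044 for *pals-16* in WT25. None of these was called. The median correlation among members was 0.17, and 0.23 without *osm-5* replicate 3.

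The replicate numbers do not pair the libraries. With a replicate block the counts were 1 and 0 for *eat-2*, 19 and 0 for *ife-2*, 0 and 0 for *osm-5*, 10 and 0 for *glp-1*, and 0 and 5 for WT25. In *eat-2* and WT25, 2 of 6 libraries correlated best with their own number, and 0 in the others. The 11 members under the filter were not tested.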
